A study of Mus musculus with 36 samples.

Results

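The comparison concerned open chromatin 1 h after cortical neurons received either BDNF or KCl, measured by ATAC-seq, in which a transposase inserts adapters into accessible DNA. It rested on 4 of the 18 ATAC-seq libraries (36 samples in the whole series, the other 18 being RNA-seq), chosen by their labels: 2 libraries of neurons given BDNF for 1 h and 2 of neurons given KCl for 1 h. All groups were primary cortical neurons of mixed CD-1 mouse embryos at embryonic day 15, kept 7 days in vitro and silenced for 2 h with 100 µM AP-5, an NMDA receptor blocker, and 1 µM TTX, a sodium channel blocker. The BDNF group then received 10 ng/ml of the neurotrophin and the KCl group 55 mM KCl for 1 h, and 6 control libraries stayed in AP-5 and TTX for 3, 8 or 12 h in total. Pairs of libraries given BDNF or KCl for 6 h or 10 h served for the later times. Tissue of all embryos was pooled before plating. The paper describes 2 biological replicates of each treatment and time for RNA-seq, and ATAC-seq of the same samples. Nothing in the labels says that the 2 libraries of a group came from separate dissections. The p-values therefore measure only the spread between libraries of a group, estimated over all 18. The 2 columns of a group carry no replicate number and are called A and B here in the order of the table.

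BDNF binds the receptor tyrosine kinase TrkB and drives the Ras-ERK, PI3K and phospholipase C-gamma pathways, whereas raised extracellular KCl depolarises the membrane and lets calcium in through voltage-gated channels. Both stimuli switch on immediate early genes, which need no new protein for their transcription, among them Fos and Jun, whose products pair to form the transcription factor AP-1. AP-1 binds the heptamer TGANTCA, mostly far from gene starts, and is known to help open chromatin at enhancers in activated cells. Accessibility at a gene start and at distal elements does not have to follow the level of the gene's RNA.

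The 2 BDNF libraries held 3823920 and 4912237 reads in peaks, the KCl libraries 3944945 and 6236439 and the controls 2426087 to 4236085. Reads in promoter peaks (1000 bp before to 100 bp after an annotated start) made up 59.9% and 60.6% of the BDNF libraries, 61.0% and 61.1% of the KCl libraries and 63.4% to 64.3% of the controls. With 2 libraries against 2, the smallest two-sided p of an exact permutation test is 0.33, so this difference could not reach significance. In the matching RNA-seq libraries, the 10 neuronal markers summed to 53704 to 54803 normalised counts with BDNF and 51969.9 to 57642 with KCl, and 7 microglial markers to only 128 to 171 and 154 to 205. Such sums hide single members. Of the 10 neuronal markers, 2 were higher with BDNF and 5 with KCl at an adjusted p below 0.1, beside 24.6% and 18.2% of all genes tested. Tubb3 stood at 16199 and 16784 with BDNF against 11523 and 9795 with KCl, and Tbr1 at 438 and 478.5 against 1048 and 820. The 7 astrocyte markers summed to 16097 to 17047 and 15427 to 17289, the 8 GABAergic markers to 18567 to 19062 and 17982 to 20391, the 7 progenitor markers to 10459 to 10735 and 11211 to 12684 and the 6 vascular markers to 566 to 723 and 554 to 1133, with Cldn5 under 10 in all 4 libraries. The 7 markers of the oligodendrocyte lineage summed to 6484 to 6797 with BDNF and 4528 to 5028 with KCl, against 6035 to 6480.3 in the controls. By the same threshold 6 of these 7 markers were higher with BDNF and 1, Mog, was higher with KCl. Their part in the chromatin differences was not tested. Of the peaks of that list, none of 4 at promoters and 2 of 24 elsewhere (8.33%) were called, both higher with KCl. Of all other peaks within 100 kb of a gene start, 11.3% were higher with BDNF and 4.22% with KCl, and of all promoter peaks 5.16% and 4.75%. In such bulk libraries a change in accessibility per cell and a change in the share of cells with an open site cannot be told apart.

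Central 200 bases of a few peaks are given first, on the plus strand of GRCm38 (mm10), because the results below turn on what these windows hold. Capitals mark matches to the 16 motifs searched, which are described with the motif results. The 3 sites with the largest difference in favour of BDNF lay in introns of Lrfn2, Nebl (chr2:17531521-17531720) and S100a3 (chr3:90587869-90588068). None of the 3 held a match in this window, and those of Nebl and S100a3 are printed.

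Nebl intron: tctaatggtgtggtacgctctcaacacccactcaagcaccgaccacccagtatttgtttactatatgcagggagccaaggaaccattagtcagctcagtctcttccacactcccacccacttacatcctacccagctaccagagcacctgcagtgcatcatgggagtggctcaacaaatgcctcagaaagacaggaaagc
S100a3 intron: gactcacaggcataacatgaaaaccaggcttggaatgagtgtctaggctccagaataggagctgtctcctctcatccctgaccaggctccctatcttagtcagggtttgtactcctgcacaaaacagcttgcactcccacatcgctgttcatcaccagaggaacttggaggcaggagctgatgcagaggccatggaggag

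The next site, in an exon of Sptbn1 (chr11:30102690-30102889), and the Sprr1a promoter (chr3:92485964-92486163) show the AP-1 heptamer that was common among the peaks higher with BDNF. Both were chosen for display after their values were seen.

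Sptbn1 exon: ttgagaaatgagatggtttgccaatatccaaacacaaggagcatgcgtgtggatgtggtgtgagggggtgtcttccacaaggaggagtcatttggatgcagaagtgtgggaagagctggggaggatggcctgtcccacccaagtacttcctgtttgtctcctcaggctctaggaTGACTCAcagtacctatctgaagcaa
Sprr1a promoter: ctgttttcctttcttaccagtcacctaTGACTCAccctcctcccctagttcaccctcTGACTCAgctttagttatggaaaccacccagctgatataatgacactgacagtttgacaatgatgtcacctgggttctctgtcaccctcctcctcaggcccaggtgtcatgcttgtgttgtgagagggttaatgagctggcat

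The 3 sites with the largest difference in favour of KCl were introns of A630089N07Rik (chr16:98081174-98081373) and Fsd1l (chr4:53637459-53637658) and a transcript start of Dync1i1 (chr6:6005106-6005305), none of them with a match. The Nr4a1 promoter (chr15:101266547-101266746), shown after its values were seen, held 2 MEF2 matches and 1 KLF/SP match.

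A630089N07Rik intron: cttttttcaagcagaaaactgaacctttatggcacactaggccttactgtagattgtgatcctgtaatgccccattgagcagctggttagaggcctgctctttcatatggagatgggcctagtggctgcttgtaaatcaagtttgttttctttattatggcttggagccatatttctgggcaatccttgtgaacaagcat
Fsd1l intron: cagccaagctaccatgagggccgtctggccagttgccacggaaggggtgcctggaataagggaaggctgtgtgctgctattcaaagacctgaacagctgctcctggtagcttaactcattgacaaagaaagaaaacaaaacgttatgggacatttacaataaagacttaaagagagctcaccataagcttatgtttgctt
Dync1i1 start: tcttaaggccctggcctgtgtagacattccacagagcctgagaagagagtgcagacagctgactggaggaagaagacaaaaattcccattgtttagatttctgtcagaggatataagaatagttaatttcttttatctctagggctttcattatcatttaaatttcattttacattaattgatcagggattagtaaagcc
Nr4a1 promoter: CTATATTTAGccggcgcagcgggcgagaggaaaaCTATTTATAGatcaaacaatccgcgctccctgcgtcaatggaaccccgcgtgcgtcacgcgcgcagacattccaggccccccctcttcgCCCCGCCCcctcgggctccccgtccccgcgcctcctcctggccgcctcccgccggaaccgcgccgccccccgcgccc

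The last window (chr15:74679123-74679322) is the centre of the peak upstream of Arc in which the study placed a pair of CRISPR guides, and it held an E-box and an SRF match. The guides map to chr15:74679096-74679115 on the plus strand and chr15:74679163-74679182 on the minus strand and are printed because they mark where the element described below was cut.

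Arc upstream peak: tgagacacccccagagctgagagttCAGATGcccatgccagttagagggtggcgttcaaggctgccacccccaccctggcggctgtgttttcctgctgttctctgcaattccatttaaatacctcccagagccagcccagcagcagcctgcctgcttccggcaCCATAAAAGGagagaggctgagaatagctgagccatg
guide 1: ttgggggggctactgccagc
guide 2: cttgaacgccaccctctaac

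At 1 h, more of the loci that differed in accessibility between the 2 stimuli were higher with BDNF than with KCl. Of 56383 peaks with a mean of at least 10 reads, 5262 (9.33%) were higher with BDNF and 3076 (5.46%) were higher with KCl at an adjusted p below 0.1, so that 63.1% of the 8338 called peaks were higher with BDNF. The differences in favour of BDNF were larger, with a median log2 fold change of 1.47 and 1256 peaks (23.9%) that differed at least 4-fold. Peaks higher with KCl had a median difference of 1.17 in size on the same scale, and 208 of them (6.76%) differed at least 4-fold. Both libraries of one stimulus lay above both of the other in 99.7% of the called peaks in each direction, and in 55.9% of all peaks tested. Log2 fold changes here are BDNF minus KCl, from counts scaled by LOESS, and a scaled count is the number of reads in a peak after that scaling.

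Called peaks were mostly away from promoters. Promoter peaks were called higher with BDNF in 788 of 15271 cases (5.16%) and higher with KCl in 726 (4.75%), at median log2 fold changes of 0.68 and -0.65. The balance at promoters depended on the scaling, with 811 and 918 calls by total reads, and leaving out any 1 of the 4 libraries lowered the counts, to between 226 and 508 and between 212 and 470, the lowest without KCl library B. Intronic peaks were called in 11.6% and 5.14% of 18710 cases and intergenic peaks in 10.4% and 6.38% of 19741, with medians of 1.56 and 1.57 for BDNF and -1.34 and -1.28 for KCl. Exonic peaks stood at 9.24% and 4.81% of 2661. By distance from the nearest start of a protein-coding transcript, the share higher with BDNF was 4.63% within 1 kb, 12.0% at 2 to 10 kb and 10.0% beyond 100 kb, while the share higher with KCl was 4.72%, 3.02% and 8.42%. Peaks beyond 100 kb made up 1265 of the 3076 higher with KCl and 1506 of the 5262 higher with BDNF, beside 15030 of all 56383 peaks tested.

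The counts depended on all 4 libraries. Without KCl library B, the deepest, 1928 peaks were higher with BDNF and 871 higher with KCl, and without KCl library A 4199 and 1947. Without BDNF library A the counts were 3100 and 1198, and without BDNF library B 2927 and 1277. In each of these fits the lone library of its group was assumed to vary like the other groups.

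**Figure D1:**
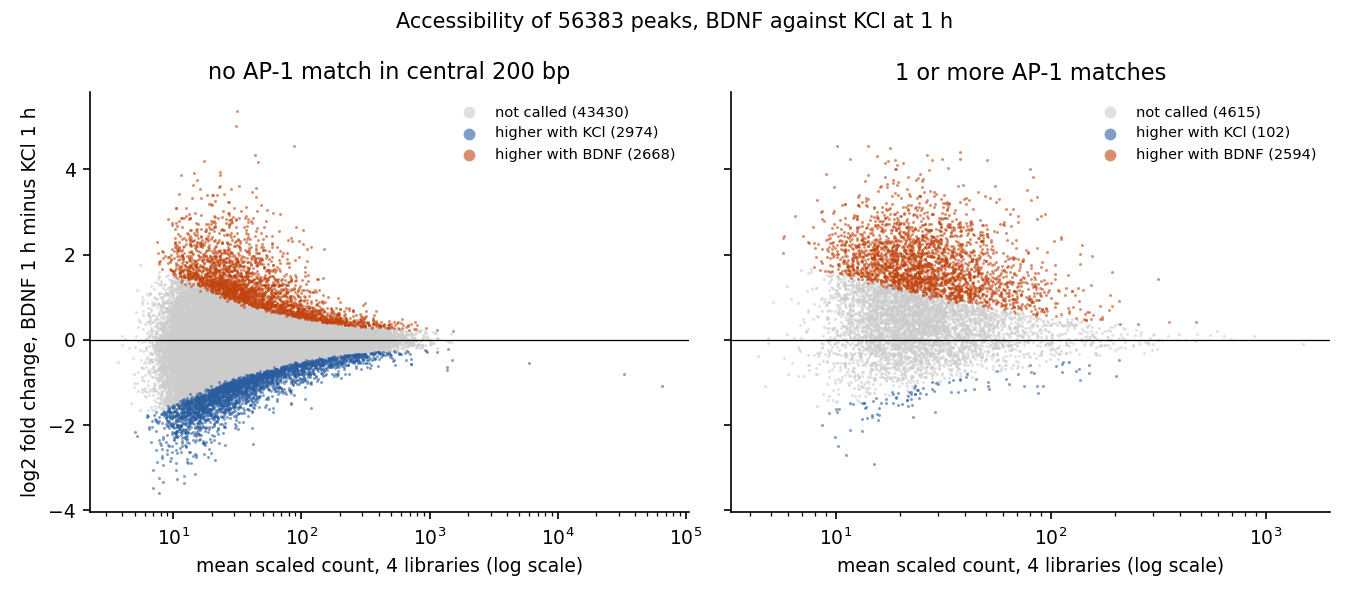
Log2 fold change (BDNF 1 h minus KCl 1 h) against the mean scaled count of the 4 libraries (log axis) for 56383 peaks, each a point, split by whether the central 200 bp hold the AP-1 heptamer. With a match, 2594 peaks were higher with BDNF and 102 higher with KCl; without one, 2668 and 2974.

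Beside the silenced controls, the peaks higher with BDNF were mostly sites at which BDNF stood above the controls and KCl near them. Over these 5262 peaks the median scaled count was 45.9 and 45.8 in the BDNF libraries, 17.1 and 13.3 in the KCl libraries and 13.4 to 16.1 in the 6 controls. Outside promoters their median log2 fold change against the controls was 1.72 with BDNF and 0.02 with KCl. At the 788 promoter peaks of the group it was 0.27 and -0.33, values of similar size in opposite directions. Because the 4 libraries that chose the peaks also enter these comparisons, the medians are a description.

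By their medians, peaks higher with KCl stood below the controls with BDNF and above them with KCl. Their median scaled count was 43.5 and 44.6 with KCl, 18.4 and 19.7 with BDNF and 30.1 to 31.3 in the controls. Outside promoters the median log2 fold change against the controls was -0.74 with BDNF and 0.49 with KCl, and at promoters -0.25 and 0.40. The promoter medians lay on either side of the controls, as they did at promoter peaks higher with BDNF. The 4 libraries that chose these 3076 peaks enter the medians here too, so they are again a description. Most of these peaks were already open in silenced neurons: 79 of 3076 (2.57%) had a control mean below 10 scaled counts, against 1942 of 5262 (36.9%) of the peaks higher with BDNF and 7.12% of all peaks tested. The filter of a mean of 10 reads over all 18 libraries bears on this contrast, since a peak low in the controls could pass only through stimulated libraries. The part of the filter in the contrast was not tested. The promoter peaks higher with KCl were richer in GC (median 63.5%) than those higher with BDNF (57.8%), with 62.5% over all promoter peaks, and outside promoters the medians were 41.9%, 45.3% and 46.1%.

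**Figure D2:**
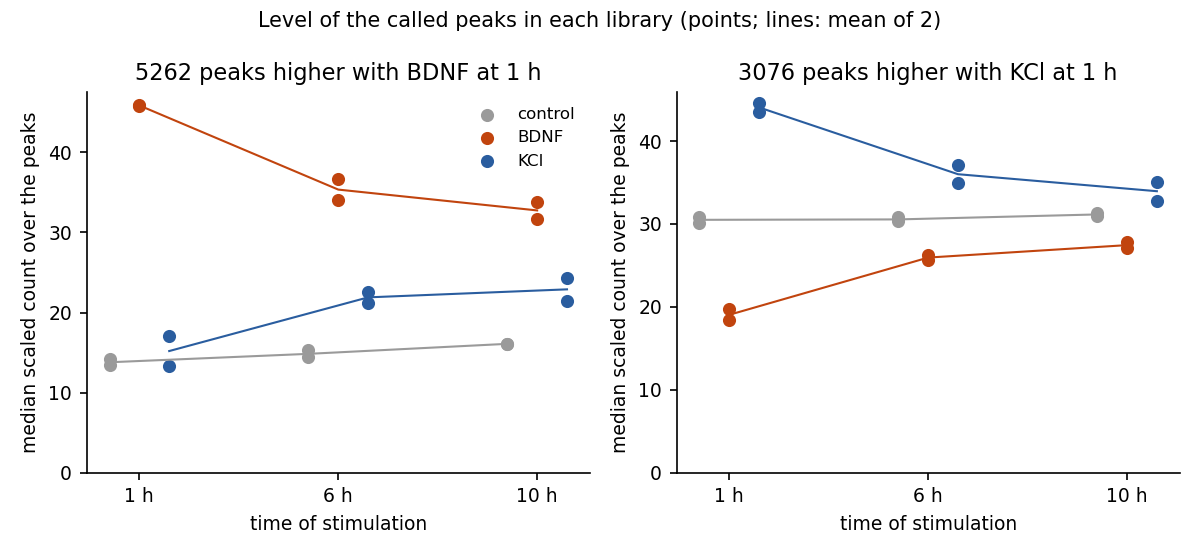
Median scaled count over the 5262 peaks higher with BDNF at 1 h (left) and the 3076 higher with KCl (right), in each of 18 ATAC-seq libraries (points, with lines through the means of 2) by time of stimulation. At 1 h the selected stimulus stands highest by choice of the peaks, and at 6 h and 10 h, in other libraries, BDNF and KCl lie closer together.

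The AP-1 heptamer set the groups apart. TGANTCA stood in the central 200 bp of 2594 of 5262 peaks higher with BDNF (49.3%, exact binomial 95% interval 47.9% to 50.7%), in 102 of 3076 higher with KCl (3.32%, 2.71% to 4.01%) and in 13.0% of all 56383 peaks tested. Outside promoters the shares were 55.1%, 3.91% and 16.5%, and at promoters 16.1%, 1.38% and 3.54%. Larger differences in favour of BDNF went with a larger share: 15.0% of peaks that differed less than 2-fold held a match, 52.3% of those between 2- and 4-fold, 72.0% between 4- and 8-fold and 75.7% of the 181 beyond 8-fold. Of the peaks higher with KCl, 2.34%, 3.97% and 3.54% held one in the first 3 of these classes and none of the 10 in the last. The intervals above cover counting error only and take the peaks as independent. The classes by size were not split by position. Promoter peaks higher with BDNF, which held fewer matches, had a median log2 fold change of 0.68, against 1.56 outside promoters. The part of position and of read count in the rise of the share with size was not tested.

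Read the other way round, over all tested peaks, those with more matches leaned further towards BDNF. The tested peaks were themselves selected by a mean of at least 10 reads over 18 libraries. A site low in the controls could pass only through higher counts in stimulated libraries. Of the 4016 tested peaks with a control mean below 10 scaled counts, 68.7% held a match. The part of this filter in the lean was not tested. The median log2 fold change was -0.07 over 49072 peaks with no match, 0.62 over 6210 with 1 match and 1.44 over 1101 with 2 or more. In the last class 684 peaks (62.1%) were higher with BDNF and 4 higher with KCl. In the single libraries, the median of these 1101 peaks was 33.8 and 34.1 scaled counts with BDNF, 15.4 and 10.5 with KCl and 6.28 to 8.85 in the controls, so the KCl libraries lay between the other groups and differed from each other. Peaks without a match stood at 30.3 in both BDNF libraries, 31.1 and 31.7 with KCl and 31.1 to 32.2 in the controls. As a share of all reads in peaks, peaks with a match took 8.72% and 8.93% of the BDNF libraries, 6.17% and 5.40% of the KCl libraries and 4.45% to 4.80% of the controls.

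The matches lay at the centres of the peaks. Within 50 bp of the centre there were 3.96 matches per kb in peaks higher with BDNF, 0.171 in peaks higher with KCl and 0.906 over all peaks, whereas 300 to 500 bp away the densities were 0.325, 0.268 and 0.28. In the central windows, C or G was the middle base in 74.9% of the matches of the BDNF group, 67.1% over all peaks and 40.5% in the KCl group. A match in the window is a description of the letters and not of a bound factor.

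**Figure D3:**
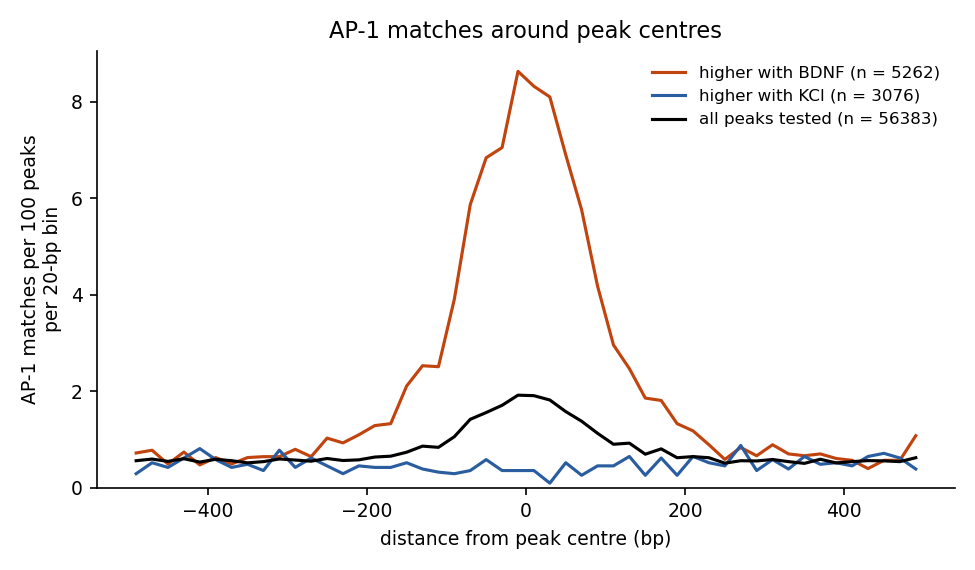
AP-1 heptamers per 100 peaks in 20-bp bins by distance of the heptamer from the peak centre, for peaks higher with BDNF, higher with KCl and all peaks tested. The BDNF group rises above 8 per 100 peaks at the centre, the KCl group stays below 1, and the 3 lines meet beyond about 300 bp.

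In percentage points the other 15 motifs differed less. Searched on both strands and with no motif contained in another, they were the CRE (TGACGTCA), EGR (GCGTGGGCG), ETS (CCGGAAGT), KLF/SP (CCCCGCCC), POU (ATGCAAAT), homeobox (TAATTA), HIC1 (GGGCACC), RFX (GTTGCCATG), E2F (TTCCCGCC), NRF1 (GCGCATGCG), YY1 (AAGATGGCG) and E-box (CAGATG) sequences, and CTCF, MEF2 and SRF sites. Homeobox sequences stood in 14.2% of peaks higher with KCl, 8.46% of those higher with BDNF and 9.34% of all peaks. POU octamers, bound by neuronal factors such as the Brn family, stood in 5.46%, 3.08% and 3.17%, RFX sites in 2.47%, 0.855% and 1.44%, and MEF2 sites in 1.59%, 0.646% and 0.816%. SRF sites were in 1.5%, 0.855% and 0.942%.

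The CRE, the site of CREB, was rare in each group, with 0.65% of peaks higher with KCl, 0.418% of those higher with BDNF and 0.717% of all peaks. E-boxes stood in 23.4% of the BDNF group, 17.2% of the KCl group and 18.7% of all peaks. CTCF sites, which mark insulators and loop anchors, were below the overall share of 3.38% in both groups, at 1.9% with BDNF and 0.26% with KCl. Over all 1905 peaks with a CTCF site the median log2 fold change was 0.20, and 100 were higher with BDNF against 8 with KCl. Among promoter peaks, KLF/SP boxes were in 25.5% of those higher with KCl, 13.8% of those higher with BDNF and 19.7% of all. ETS sites had shares of 1.1%, 4.44% and 4.28% there, and YY1 sites 0.275%, 3.3% and 2.12%. GC content also differed between the groups, and its part in these shares was not tested.

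**Figure D4:**
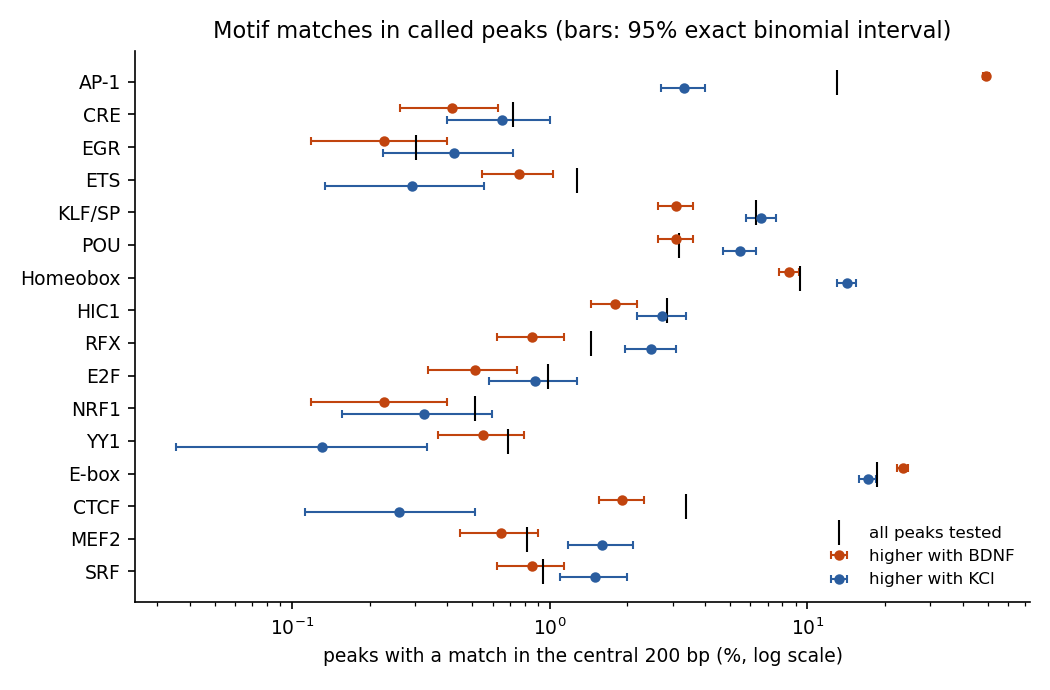
Percent of peaks with a motif match in the central 200 bp (log axis) for peaks higher with BDNF and higher with KCl (points with exact binomial 95% intervals, counting error only) and for all peaks tested (vertical marks). AP-1 has the widest gap, 49.3% against 3.32%.

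The 10 largest differences in favour of BDNF were at sites that were almost closed in the KCl libraries and in most controls. The largest was in an intron of Lrfn2, a synaptic adhesion protein, where the BDNF libraries held 46.5 and 75.9 scaled counts, the KCl libraries 1.72 and 1.12 and the controls 1.03 to 11.1 (log2 fold change 5.37, SE 0.66, adjusted p = 3.6e-10). The KCl values rested on 2 reads in each library, and the ratio of the counts was 46.4 with a 95% counting interval of 17.8 to 172. An intronic site of Nebl, a nebulin-family actin-binding protein (chr2:17531402-17531840), followed with 53.9 and 66.5 against 3.44 and 0.560 (log2 fold change 5.02, SE 0.63, adjusted p = 5.5e-10). A second peak ascribed to Nebl lay outside the gene, 285 kb from its nearest start (chr2:17105947-17106335; log2 fold change 4.25, adjusted p = 1.01e-09). The S100a3 intron (chr3:90587802-90588137) was the most strongly covered of the 10, at 169.8 and 164 with BDNF, 6.69 and 7.28 with KCl and 4.61 to 11.9 in the controls (log2 fold change 4.55, SE 0.38, adjusted p = 1.57e-18). Repeats masked 47.3% of that peak.

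An exon of Sptbn1, a beta-spectrin, held 63.3 and 81.4 against 1.71 and 4.44 at chr11:30102597-30102983 (log2 fold change 4.41, SE 0.55, adjusted p = 6.36e-10), the nearest coding start being that of Eml6. An exon of Map3k7, the kinase TAK1, held 59.2 and 42.5 against 1.72 and 2.85 at chr4:31988648-31988959 (log2 fold change 4.35, SE 0.63, adjusted p = 8.34e-08). The other 4 were introns of Stau2 (chr1:16258249-16258684, log2 fold change 4.33), Ank1 (chr8:23048323-23048597, 4.25), Mpped2 (chr2:106778767-106779084, 4.23) and Rgs17 (chr10:5853355-5853729, 4.22). Mpped2 was the least even of them, at 71.4 in BDNF library A and 35.5 in library B. Of the 10 peaks, 6 held the AP-1 heptamer in the central 200 bp and the S100a3 peak held it elsewhere in the peak. KCl stood below the controls by the fitted difference at all 10, from -0.21 at S100a3 to -2.03 at Lrfn2 on the log2 scale. The lowest adjusted p of these differences was 0.0868, at Lrfn2, followed by 0.0885 in the Rgs17 intron. Low KCl values helped to choose the 10 peaks, so these differences and their p-values are a description. All 10 calls were kept without any one of the 4 libraries.

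The 10 largest differences in favour of KCl were smaller, and at none of them was the AP-1 heptamer present in the peak. In A630089N07Rik (chr16:98081123-98081425) the KCl libraries held 36.2 and 38.9 scaled counts and the BDNF libraries 0.890 and 8.94 (log2 fold change -2.81, SE 0.58, adjusted p = 0.000208), with controls of 5.97, 16.8 and 19.9 at the lowest, median and highest. The BDNF value of library A rested on 1 read. In Fsd1l (chr4:53637383-53637735) KCl held 31.6 and 53.0 and BDNF 11.8 and 4.21 (log2 fold change -2.46, SE 0.49, adjusted p = 0.000119), while the controls stood at 21.2, 29.4 and 37.0, so that BDNF lay below all controls, 1 KCl library within their range and 1 above it. At a transcript start of Dync1i1, a cytoplasmic dynein intermediate chain, chr6:6004927-6005485 held 60.3 and 81.4 with KCl, 10.1 and 15.6 with BDNF and 27.7 to 49.0 in the controls (log2 fold change -2.44, SE 0.37, adjusted p = 3.39e-07). This was the best supported of the 10.

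An intergenic site 706 kb from the start of Fat4 (chr3:39592414-39592756) held 37.6 and 40.1 with KCl and 7.27 and 6.99 with BDNF (log2 fold change -2.43, adjusted p = 9.22e-05), and an intron of Fat3 (chr9:16074685-16075069), like Fat4 a giant protocadherin, held 31.8 and 41.8 and 9.01 and 6.94 (log2 fold change -2.21, adjusted p = 0.0012). Upstream of Erbb4, a neuregulin receptor, chr1:69329337-69329771 held 44.9 and 36.0 with KCl, 9.16 and 8.46 with BDNF and 19.2 to 51.4 in the controls (log2 fold change -2.18, SE 0.46, adjusted p = 0.000296). The fitted difference from the controls there was -2.06 with BDNF (adjusted p = 3.6e-05) and 0.12 with KCl (adjusted p = 0.881). The libraries that chose this peak enter both differences, so they are a description. The remaining sites included introns of Col14a1 (chr15:55492846-55493167, log2 fold change -2.34) and Gars (chr6:55044676-55044953, -2.25) and an intronic site whose nearest coding start was that of Prdm2 (chr4:142772847-142773039, -2.22). Of the 10 calls, 2 were lost when 1 library was left out, among them the one near Prdm2 (adjusted p = 0.176 without KCl library B), and the other 8 were kept without any one of the 4.

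Promoters differed less than distal sites. Sprr1a, a cornified-envelope protein that is also made by injured neurons, led for BDNF: its promoter (chr3:92485900-92486228) held 40.1 and 33.1 with BDNF, 5.16 and 2.30 with KCl and 1.07 to 11.2 in the controls (log2 fold change 3.33, SE 0.63, adjusted p = 4.65e-05). A promoter of 1700014D04Rik (chr13:59746776-59747077) held 71.4 and 78.2 against 12.7 and 3.79 (log2 fold change 3.28, SE 0.46, adjusted p = 3.49e-08). Erc1, an active-zone scaffold (chr6:119849084-119849288, log2 fold change 3.27), the vomeronasal receptor gene Vmn2r120 (chr17:57545533-57545912, 2.86), Neb (chr2:52367267-52367566, 2.73) and Pate1 (chr9:35687089-35687400, 2.65) followed. Erc1 was the one of the 6 without the AP-1 heptamer. Reads at Vmn2r120, a member of a large gene family, can be shared with near-identical copies.

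In favour of KCl, the Gzmk promoter (chr13:113225760-113226291) had the most reads and the lowest p of 6, at 197 and 161 with KCl, 58.9 and 58.7 with BDNF and 53.8 to 90.6 in the controls (log2 fold change -1.60, SE 0.22, adjusted p = 8.27e-09). Lama3, a laminin chain (chr18:12333626-12334149), held 45.1 and 52.7 with KCl and 12.8 and 12.0 with BDNF (log2 fold change -1.98, SE 0.44, adjusted p = 0.000644). The promoters of Fstl4 (chr11:52764493-52764925, log2 fold change -1.97), Nhsl2 (chrX:102003894-102004241, -1.82), Slco1a4 (chr6:141856098-141856390, -1.63) and Itgbl1 (chr14:123660978-123661339, -1.63) completed the 6. At Gzmk the difference was present again in other libraries, at -1.36 after 6 h (adjusted p = 3.97e-05) and -1.07 after 10 h (adjusted p = 0.00646). None of these 6 held the AP-1 heptamer. The calls at Fstl4 (adjusted p = 0.143 without BDNF library B), Nhsl2 (adjusted p = 0.228 without BDNF library A), Slco1a4 (adjusted p = 0.23 without KCl library B) and Itgbl1 (adjusted p = 0.103 without BDNF library A) were lost when 1 library was left out, whereas Gzmk, Lama3 and all 6 promoters above were kept without any one of the 4.

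Genes of the AP-1 family themselves had 1 called promoter peak but several more open sites around them with BDNF. Of 14 promoter peaks at 12 of the 13 genes, the Jund peak alone was called (chr8:70698387-70699435). It was higher with KCl (400.0 and 400.5 against 338 and 303, log2 fold change -0.32, adjusted p = 0.0593). Of all promoter peaks, 5.16% were higher with BDNF and 4.75% with KCl. Of 18 other peaks within 100 kb, 5 were higher with BDNF and none with KCl, beside 11.3% and 4.22% of all 26554 such peaks, and their median log2 fold change was 0.17 beside 0.05. The strongest lay 53.3 kb upstream of Jun, the partner of Fos in AP-1 (chr4:95105344-95105728): 175 and 199.9 with BDNF, 45.3 and 26.7 with KCl and 17.3 to 29.2 in the controls (log2 fold change 2.42, SE 0.26, adjusted p = 2.29e-12). Another 2 stood downstream of Jun (log2 fold changes 0.99 and 2.04). Near Fosl2 a site with 3 heptamers (chr5:32035751-32036129) held 37.2 and 69.2 against 23.1 and 12.7 (log2 fold change 1.62, adjusted p = 0.00706), and near Fos 1 site 14.0 kb downstream held 43.1 and 47.3 against 20.3 and 26.2 (log2 fold change 0.94, adjusted p = 0.0973). The Jun upstream site was kept without any one of the 4 libraries, but the calls at Jund (adjusted p = 0.396 without BDNF library B), Fosl2 (adjusted p = 0.304 without BDNF library B) and Fos (adjusted p = 0.338 without KCl library A) were lost when 1 was left out.

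RNA of the same genes went both ways. Jun RNA stood at 2904 and 3184 normalised counts with BDNF against 1466 and 1526 with KCl (log2 fold change 1.02, adjusted p = 1.93e-08), and Fosl1, Fosl2, Jund and Atf3 were also higher with BDNF. Fos RNA stood at 1715 and 1738 normalised counts with BDNF against 5742 and 5274 with KCl (log2 fold change -1.67, adjusted p = 2.97e-07), Fosb RNA at 754 and 901 normalised counts with BDNF against 5421 and 6088 with KCl (log2 fold change -2.80, adjusted p = 3.27e-08), and Junb, Maff and Mafk were higher with KCl as well. Neither the 2 promoter peaks of Fos nor that of Fosb was called between the stimuli. Over all genes tested, 24.6% were called higher with BDNF and 18.2% higher with KCl in RNA.

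The Egr transcription factors and their co-repressors Nab1 and Nab2 were all higher with BDNF in RNA (6 of 6, beside 24.6% of all genes tested), but their promoters differed little in accessibility. Egr2 RNA stood at 3868 and 3913 normalised counts with BDNF against 253 and 208 with KCl (log2 fold change 4.08, adjusted p = 2.85e-12), and neither its promoter peak nor those of Egr1, Egr3, Egr4 and Nab1 were called. The Nab2 promoter (chr10:127666450-127667062) was called, at 105 and 114 with BDNF, 65.3 and 62.6 with KCl and 34.6 to 90.1 in the controls (log2 fold change 0.78, SE 0.26, adjusted p = 0.0339). Of 15 other peaks within 100 kb, 3 were higher with BDNF, near Egr1, Egr3 and Nab1, and 1 near Egr3 was higher with KCl (chr14:69991721-69992186, log2 fold change -0.96, adjusted p = 0.0517). Over all such peaks the shares were 11.3% and 4.22%, and over all promoter peaks 5.16% and 4.75%. None of the calls with values held without every single library, with Nab2 lost at adjusted p = 0.238 without KCl library B and the Egr3 site at adjusted p = 0.439 without BDNF library B.

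Among 20 other early transcription factors, 2 of 26 promoter peaks were higher with BDNF and 2 with KCl, beside 5.16% and 4.75% of all promoter peaks. The Hic1 promoter, of a zinc-finger repressor, held 128 and 153 with BDNF and 76.6 and 65.4 with KCl at chr11:75170196-75170713 (log2 fold change 1.00, SE 0.23, adjusted p = 0.0012). The promoter of Bhlhe40, a repressor tied to the circadian clock, held 549 and 535 and 375 and 432 (log2 fold change 0.42, adjusted p = 0.00594). The nuclear receptor genes Nr4a1 and Nr4a3, classic targets of depolarisation, were higher with KCl. Nr4a1 (chr15:101266257-101267037) held 130.4 and 129 with KCl, 97.4 and 75.6 with BDNF and 37.2 to 61.9 in the controls, so that both stimuli stood above every control (log2 fold change -0.59, SE 0.23, adjusted p = 0.0864). Nr4a3 (chr4:48044563-48045387) held 290.0 and 307 with KCl and 214 and 206 with BDNF, the latter within the control range of 174 to 235 (log2 fold change -0.51, SE 0.14, adjusted p = 0.0072). Their RNA differed in the same direction (Nr4a1 -3.37 and Nr4a3 -2.10 on the log2 scale). Npas4 and Nr4a2 RNA differed by -3.29 and -3.20, yet none of their 4 promoter peaks was called. Hic1 was kept without any one of the 4 libraries, while Bhlhe40 (adjusted p = 0.142 without KCl library A), Nr4a1 (adjusted p = 0.504 without BDNF library B) and Nr4a3 (adjusted p = 0.128 without KCl library B) were lost when 1 was left out.

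Around the same 20 genes, 4 of 61 other peaks (6.56%) were higher with BDNF and 5 (8.2%) with KCl, at a median log2 fold change of -0.05. Over all such peaks the shares were 11.3% and 4.22%. A further site, not among the 61 because it is a promoter of another gene, had the largest difference near this list. It lay 83.9 kb upstream of Klf10, a TGF-beta and growth factor responsive repressor, at a transcript start of Gm26863 (chr15:38384249-38384975). It held 187 and 201 with BDNF, 42.0 and 42.7 with KCl and 21.2 to 57.3 in the controls (log2 fold change 2.19, SE 0.25, adjusted p = 1.08e-11), and Klf10 RNA stood at 2880.1 and 2812 normalised counts with BDNF against 244 and 242 with KCl (log2 fold change 3.54, adjusted p = 1.25e-15). Sites near Bhlhe40 (chr6:108571011-108571582, 2.11) and Klf6 (chr13:5892796-5893045, 1.81) were also higher with BDNF. Upstream of Klf4, chr4:55547057-55547358 held 32.7 and 30.3 with KCl, 12.1 and 9.39 with BDNF and 5.28 to 15.4 in the controls (log2 fold change -1.55, adjusted p = 0.0381). Mef2c, a transcription factor of activity-dependent synapse number, had 3 of 17 such peaks higher with KCl, of which chr13:83654990-83655739 held 143 and 133 against 69.8 and 71.4 (log2 fold change -0.96, adjusted p = 0.000586). That peak was not refitted without single libraries. The peak with the largest difference of the 3 (chr13:83603948-83604148, log2 fold change -1.38, adjusted p = 0.0193) lost its call when 1 library was left out. It stood at -1.35 without KCl library B. Mef2c RNA was higher with KCl too (log2 fold change -1.14, adjusted p = 8.78e-10), yet 2 peaks at other transcript starts 68.3 and 74.5 kb from its start were higher with BDNF (log2 fold changes 0.51 and 0.92). The sites near Klf10 and Bhlhe40 were kept without any one library, and those near Klf6 (adjusted p = 0.295 without KCl library B) and Klf4 (adjusted p = 0.262 without BDNF library B) were lost when 1 was left out.

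Activity effectors, genes whose products act at synapses or as secreted factors, were mostly higher with BDNF in RNA, 14 of 21, with 3 higher with KCl, beside 24.6% and 18.2% of all genes tested. Of their 23 promoter peaks 2 were higher with BDNF and 4 with KCl, beside 5.16% and 4.75% of all promoter peaks. The BDNF calls were Arc and Serpinb2, a protease inhibitor linked to neuronal survival. The Serpinb2 promoter (chr1:107511142-107511597) held 100.0 and 97.7 with BDNF, 41.8 and 14.4 with KCl and 23.4 to 47.0 in the controls (log2 fold change 1.89, SE 0.32, adjusted p = 3.9e-06), and a site 5.33 kb upstream of it (chr1:107505936-107506247) held 74.5 and 44.8 against 8.54 and 4.39 (log2 fold change 3.24, SE 0.49, adjusted p = 2.37e-07). Both Serpinb2 calls were kept without any one of the 4 libraries. The KCl calls were Btg2, Rgs4, Pcsk1 and Gadd45a.

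At Rgs4, a regulator of G-protein signalling (chr1:169747367-169748005), the promoter held 155 and 150.4 with KCl, 83.4 and 101 with BDNF and 66.3 to 91.0 in the controls (log2 fold change -0.72, SE 0.21, adjusted p = 0.0112), although Rgs4 RNA was higher with BDNF (log2 fold change 2.33, adjusted p = 2.22e-07). Btg2, an antiproliferative gene, had the same opposition: 187 and 237 with KCl and 139.8 and 175 with BDNF at the promoter (log2 fold change -0.43, adjusted p = 0.0631) and an RNA difference of 2.99 in favour of BDNF. The Pcsk1 promoter, of the prohormone convertase, held 110.1 and 91.6 and 79.2 and 44.5 (log2 fold change -0.72, adjusted p = 0.0505) and its RNA was higher with KCl (log2 fold change -2.23, adjusted p = 3.95e-06). Gadd45a differed by -0.36 at the promoter and by 0.08 in RNA (adjusted p = 0.84). Of 64 other peaks of the list, 8 (12.5%) were higher with BDNF and 4 (6.25%) with KCl, beside 11.3% and 4.22% of all such peaks, at a median of 0.07. The largest of these 4 was 59.6 kb from a start of Bdnf itself (chr2:109768909-109769153): 1 and 2 reads with BDNF against 10 and 29 with KCl, a count ratio after scaling of 12.7 in favour of KCl with a 95% counting interval of 4.04 to 64.3. Near Nptx2, a neuronal pentraxin, chr5:144543044-144543324 held 63.5 and 42.1 with BDNF and 15.5 and 7.87 with KCl (log2 fold change 2.20, adjusted p = 0.000893). The calls at Rgs4 (adjusted p = 0.18 without BDNF library A), Btg2 (adjusted p = 0.603 without KCl library B), the Pcsk1 promoter (adjusted p = 0.621 without BDNF library B), the Gadd45a promoter (adjusted p = 0.354 without BDNF library A), Bdnf (adjusted p = 0.12 without KCl library B) and Nptx2 (adjusted p = 0.109 without KCl library B) were lost when 1 library was left out.

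Arc, the effector with the widest gap in RNA, is shown in full because the study placed guides in an upstream peak. Arc RNA stood at 6244 and 6474 normalised counts with BDNF against 182 and 141 with KCl (log2 fold change 5.30, adjusted p = 5.96e-15). Its promoter peak (chr15:74672355-74672871) held 121 and 131 scaled counts with BDNF, 76.1 and 78.8 with KCl and 62.2, 73.7 and 116 at the lowest, median and highest control (log2 fold change 0.70, SE 0.22, adjusted p = 0.0239), so BDNF lay above all controls and KCl within their range, but the call was lost when 1 library was left out (adjusted p = 0.172 without BDNF library B). The upstream peak with the guide sites printed above (chr15:74678947-74679500, intergenic, 6.65 kb upstream of the start) held 101 and 80.7 with BDNF, 49.3 and 63.2 with KCl and 30.3 to 45.5 in the controls. All 4 stimulated libraries lay above all 6 controls and the BDNF libraries above the KCl libraries, but the difference between the stimuli was not called (log2 fold change 0.67, SE 0.27, adjusted p = 0.103). Against the controls the log2 fold change was 1.20 with BDNF (adjusted p = 1.1e-05) and 0.53 with KCl (adjusted p = 0.182).

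Genes that feed back on ERK signalling, the phosphatases of the Dusp family and the Sprouty and Spred inhibitors, had calls in both directions. Of 31 other peaks near 15 genes, 9 (29.0%) were higher with BDNF and 2 (6.45%) with KCl, beside 11.3% and 4.22% of all such peaks, at a median log2 fold change of 0.33 beside 0.05. Of 13 promoter peaks 2 were higher with BDNF and 1 with KCl, where all promoter peaks stood at 5.16% and 4.75%. In RNA 11 genes were higher with BDNF and 2 with KCl, beside 24.6% and 18.2% of all genes tested. Spred2 stood out, with its promoter and 5 of 8 other peaks higher with BDNF. The promoter (chr11:19923978-19924656) held 277 and 243 with BDNF, 129.7 and 148 with KCl and 127 to 176 in the controls (log2 fold change 0.89, SE 0.16, adjusted p = 8.94e-06). An intronic site with 2 heptamers (chr11:19979271-19979668) held 164 and 169.6 with BDNF, 23.5 and 19.9 with KCl and a control median of 5.20 (log2 fold change 2.95, SE 0.35, adjusted p = 3.96e-11), and a site 81.1 kb upstream (chr11:19843163-19843477) held 41.3 and 43.8 against 3.43 and 5.79 (log2 fold change 3.13, adjusted p = 4.11e-05). Spred2 RNA stood at 2637 and 2758 normalised counts with BDNF against 1111 and 900.3 with KCl. The Spry2 promoter was higher with BDNF (404 and 354 against 260.0 and 254; log2 fold change 0.56, adjusted p = 0.000952) and the Spry1 promoter higher with KCl (214 and 205 against 146 and 132; log2 fold change -0.60, adjusted p = 0.0085), while both RNAs were higher with BDNF. Of these, only the Spry1 call was lost when 1 library was left out (adjusted p = 0.151 without BDNF library B); the intronic Spred2 site was not refitted in this way.

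Members of the TrkB pathway, from receptor to kinases, had 11 of 47 other peaks (23.4%) higher with BDNF and none higher with KCl (median 0.25), and 1 and 2 of 31 promoter peaks. Over all such peaks the shares were 11.3% and 4.22%, and over all promoter peaks 5.16% and 4.75%. Shc3, a neuronal adaptor of Trk receptors, had 3 of the 11. Its intronic peak chr13:51539865-51540171 held 64.4 and 63.5 with BDNF, 15.4 and 8.82 with KCl and 2.07 to 8.73 in the controls (log2 fold change 2.43, SE 0.45, adjusted p = 3.02e-05). Ntrk3, which encodes TrkC, also had 3, led by chr7:78691085-78691363 (35.1 and 42.1 against 5.16 and 7.95; log2 fold change 2.51, adjusted p = 0.000656), although its RNA was not called between the stimuli (adjusted p = 0.484). No peak of Ntrk2, the TrkB gene, was called. A site in the ribosomal S6 kinase gene Rps6ka2 held 33.9 and 35.8 with BDNF and 5.17 and 5.06 with KCl at chr17:7233307-7233529 (log2 fold change 2.75, adjusted p = 0.000128). At the promoters, Shc2 was higher with BDNF (0.68) and Pik3r1 and Rps6ka2 higher with KCl (-0.32 and -0.34), all at log2 differences below 1. The named Shc3, Ntrk3 and intronic Rps6ka2 sites were kept without any one library, whereas Shc2 (adjusted p = 0.172 without BDNF library A), Pik3r1 (adjusted p = 0.421 without BDNF library A) and the Rps6ka2 promoter (adjusted p = 0.291 without KCl library B) were lost when 1 was left out.

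The genes of calcium signalling and CREB, the pathway that KCl engages most directly, had 21 of 85 other peaks (24.7%) higher with BDNF and 1 (1.18%) higher with KCl, beside 11.3% and 4.22% of all such peaks, and the other 63 were not called. The median of the 85 was 0.26 beside 0.05 over all. Camk2d, a calcium/calmodulin kinase, and Cacna1c, an L-type calcium channel, had 5 such peaks each. In Camk2d they ranged from 1.58 to 2.64 on the log2 scale, the highest at chr3:126831482-126831746 with 36.2 and 48.8 against 6.85 and 6.65 scaled counts. In Cacna1c they ranged from 0.81 to 2.79, the highest at chr6:118677453-118677584 with 37.3 and 20.2 against 0.857 and 6.48 scaled counts. The call at that Cacna1c site was lost when 1 library was left out (log2 fold change 1.94 without BDNF library A). Ppp3r1, the regulatory subunit of calcineurin, had an intronic site with 2 heptamers (chr11:17176733-17176988) at 68.6 and 78.2 with BDNF, 11.9 and 9.74 with KCl and 0.836 to 8.80 in the controls (log2 fold change 2.77, SE 0.43, adjusted p = 7.17e-07). Camk1d (chr2:5614836-5615319), with 3 heptamers, held 134 and 113 against 41.8 and 35.2 (log2 fold change 1.68, SE 0.30, adjusted p = 1.82e-05), and Camkk1 (chr11:73023267-73023456) 51.7 and 56.5 against 12.8 and 12.1 (log2 fold change 2.11, adjusted p = 0.000414). The named sites of Camk2d, Ppp3r1, Camk1d and Camkk1 were kept without any one of the 4 libraries.

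RNA of the same list leaned towards KCl, with 11 of 26 genes higher with KCl and 5 higher with BDNF, beside 18.2% and 24.6% of all genes tested. Camk2d RNA was higher with KCl (log2 fold change -0.28, adjusted p = 0.0194), as was Camk1d RNA (log2 fold change -0.54, adjusted p = 0.000111), although their peaks were higher with BDNF. Of 34 promoter peaks, 5 were higher with BDNF (2 of Camk2b and 1 each of Crtc2, Camk1d and Rcan2) and 4 with KCl (Gem, Ppargc1a, Camk1 and a second start of Rcan2). All promoter peaks stood at 5.16% and 4.75%. An internal start of Camk2b (chr11:6000290-6000914) held 147 and 153 with BDNF, 59.4 and 72.9 with KCl and 68.1 to 104 in the controls (log2 fold change 1.16, SE 0.21, adjusted p = 2.27e-05). The promoter of Gem, a small GTPase that inhibits calcium channels (chr4:11703988-11704906), held 120.0 and 106 with KCl, 67.4 and 62.9 with BDNF and 48.5 to 71.6 in the controls (log2 fold change -0.79, SE 0.24, adjusted p = 0.0211). Rcan2, a calcineurin inhibitor, split between its starts: chr17:43952541-43953505 was higher with BDNF (log2 fold change 0.84, adjusted p = 0.025) and chr17:44026107-44026945 higher with KCl (log2 fold change -0.60, adjusted p = 0.0976). The internal Camk2b start was kept without any one library, but Gem (adjusted p = 0.181 without BDNF library B), the first Rcan2 start (adjusted p = 0.274 without KCl library B) and the second (adjusted p = 0.513 without BDNF library A) were lost when 1 was left out.

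Genes of CTCF and cohesin, the machinery of chromatin loops, had 1 of 12 promoter peaks higher with BDNF, that of Smc1a (chrX:152015922-152017063, 187 and 199.5 against 134 and 116; log2 fold change 0.64, adjusted p = 0.00724), and 2 of 8 other peaks, near Stag1 and Wapl (median 0.54). None was higher with KCl, beside 4.75% of all promoter peaks and 4.22% of all other peaks within 100 kb. With BDNF these shares were 5.16% and 11.3%. Wapl alone of these calls was kept without any one library, with Smc1a lost at adjusted p = 0.199 without KCl library B and Stag1 at adjusted p = 0.417 without KCl library A.

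**Figure D5:**
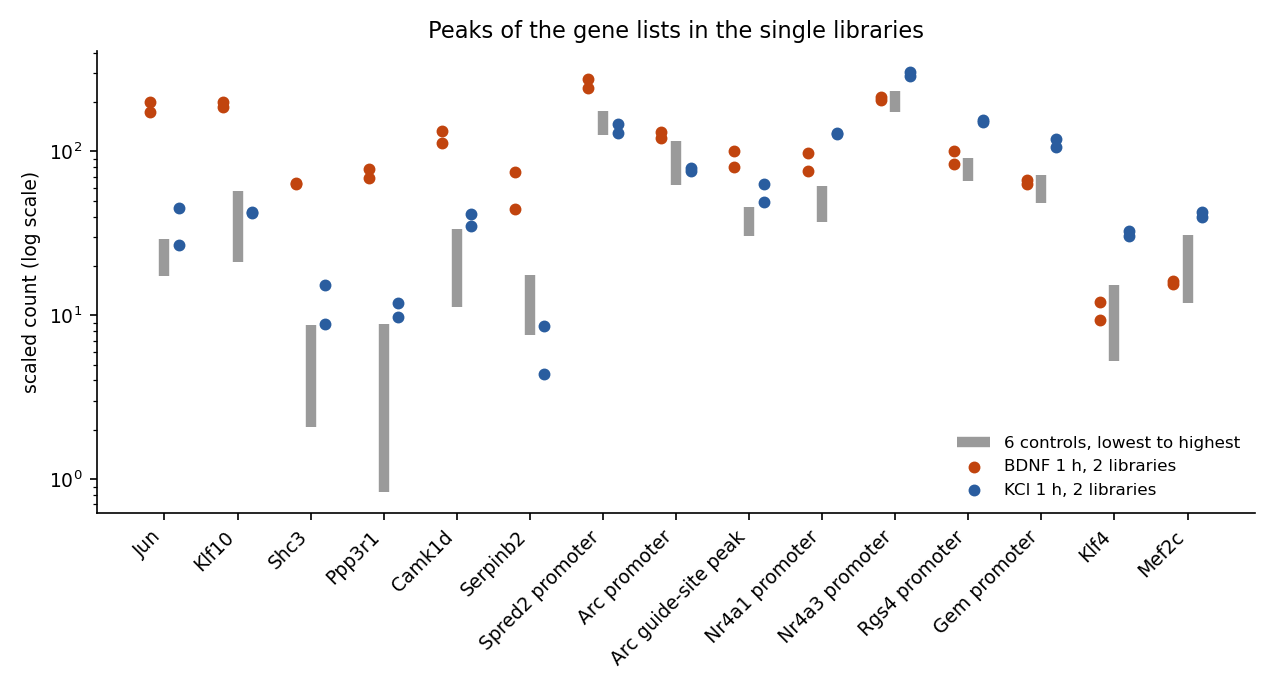
Scaled counts (log axis) of 15 peaks named by the gene lists, in the 2 BDNF and 2 KCl libraries at 1 h (points) and over the 6 controls (grey bars, lowest to highest). The BDNF points lie above the KCl points from Jun to the Arc guide-site peak, the last of which was not called, and below them from the Nr4a1 promoter to Mef2c.

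Some genes gathered several called peaks, and the 8 in each direction with the most are named here. Trio, a guanine nucleotide exchange factor for small GTPases that shapes axons, had the most peaks higher with BDNF, 8 of 22 within 100 kb, with log2 fold changes from 0.37 at its promoter to 2.23, and 1 higher with KCl. Otud7a had 7 of 15, Ubash3b 7 of 11 and Gse1 7 of 37, while Spred2 had 6 of 9, Apba2 6 of 15, Magi2 6 of 24 and Bach2 6 of 22, beside 9.33% of all peaks tested. Because the genes were chosen by these counts, shares above 9.33% follow from the choice. Gse1 and Bach2 also had 1 peak each higher with KCl, and the other 5 of these genes had none. At Ubash3b, a phosphatase that damps tyrosine kinase signalling, the strongest (chr9:41048941-41049241) held 50.8 and 44.0 with BDNF and 6.89 and 3.38 with KCl (log2 fold change 3.24, SE 0.56, adjusted p = 6.4e-06). RNA was higher with BDNF for Ubash3b (1127 and 1029 normalised counts with BDNF against 542 and 417 with KCl), Gse1 and Spred2, and higher with KCl for Trio (2202 and 2419 normalised counts with BDNF against 3636 and 3790.5 with KCl), Apba2 and Bach2. It was not called for Otud7a (adjusted p = 0.433) and Magi2 (adjusted p = 0.307).

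The genes with the most peaks higher with KCl had fewer each. Limch1, an actin-regulating protein, Robo2, an axon guidance receptor for Slit, and Zbtb20, a zinc-finger repressor, had 5 each, Dkk2, Pde4d, Lpp and Ccser1 4 each and Cap2 3, out of 6 peaks at Cap2 to 33 at Pde4d. They too were chosen by these counts, and 5.46% of all peaks tested were higher with KCl. Zbtb20, Dkk2, Pde4d and Ccser1 also had 2 peaks each that were higher with BDNF, and the other 4 genes had none. At Limch1 the 5 peaks ranged from -0.91 at a transcript start to -2.22 in an intron (chr5:66980903-66981255), where KCl held 18.9 and 35.8 and BDNF 6.29 and 5.54. The Robo2 promoter (chr16:74411376-74412127) held 135 and 169 with KCl, 113 and 98.3 with BDNF and a control median of 82.1 (log2 fold change -0.54, adjusted p = 0.0694). Of the 2 at Zbtb20, chr16:43253160-43253352, with 2 heptamers, held 40.3 and 35.3 with BDNF and 6.02 and 5.11 with KCl (log2 fold change 2.75, adjusted p = 0.000179). Of the 8 genes, Limch1, Pde4d and Ccser1 were higher with KCl in RNA and Zbtb20 higher with BDNF.

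Across genes, RNA differed only slightly with the direction of the nearby peaks. Of 529 genes with a promoter peak higher with BDNF and a tested RNA, 155 (29.3%) were higher with BDNF in RNA and 111 (21.0%) higher with KCl, at a median log2 fold change of 0.02. Of 554 genes with a promoter peak higher with KCl, 117 (21.1%) and 131 (23.6%) were, at a median of -0.10. Among all 10932 genes with a tested promoter peak the shares were 28.5% and 19.4% and the median 0.03. For genes with called peaks elsewhere within 100 kb, the shares were 26.3% and 22.4% where those peaks were higher with BDNF (1519 genes, median -0.01), 17.2% and 26.0% where they were higher with KCl (523 genes, median -0.12) and 24.8% and 21.7% over all 6952. The 119 tested genes with 3 or more such peaks higher with BDNF had 28.6% higher with BDNF and 34.5% higher with KCl in RNA. A nearest start is an assignment by position and does not say which gene a site acts on.

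In the libraries of 6 h and 10 h, which entered the 1 h comparison only through the shared filter, scaling and estimate of the spread, the medians of both groups of peaks lay in the same direction as at 1 h. Of the 5262 peaks higher with BDNF at 1 h, 808 (15.4%) were called higher with BDNF at 6 h and 393 (7.47%) at 10 h, against 2.15% and 1.20% of all peaks tested, and 4 and 5 were called in the opposite direction. Their median BDNF minus KCl difference was 0.60 at 6 h and 0.44 at 10 h, with 86.3% and 78.1% of the peaks above 0, beside medians of -0.01 over all peaks at both times. Of the 3076 peaks higher with KCl, 227 (7.38%) and 101 (3.28%) were called again, against 1.45% and 0.821% of all peaks, at medians of -0.38 and -0.27. Peaks with 2 or more AP-1 heptamers had a median difference of 0.66 at 6 h and 0.51 at 10 h.

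The difference between times was tested directly as an interaction. Between 1 h and 6 h, 33 peaks (0.0585%) were further towards BDNF at 1 h and 6 peaks (0.0106%) further towards KCl. These 39 were 101 with TMM, 104 with RLE and 121 with total reads. Between 1 h and 10 h there were 432 (0.766%) and 138 (0.245%). The part of the uneven depth of the later libraries in the gap between these counts was not tested. The interaction tests share the 1 h libraries with the comparison that chose the named peaks. The S100a3 intron was one of the 432, with a BDNF minus KCl difference of 4.55 at 1 h, 2.35 at 6 h and 1.35 at 10 h (interaction of 1 h with 10 h adjusted p = 0.000615). The Serpinb2 upstream site went from 3.24 at 1 h to -0.84 at 10 h (interaction adjusted p = 0.000615), whereas the Serpinb2 promoter stood at 1.89, 2.14 and 1.64. The site near Fat4 went from -2.43 to 0.91 (interaction adjusted p = 0.00453).

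Apart from single genes, 3 peaks with a mean above 5000 scaled counts, chosen after their values were seen, were called higher with KCl under LOESS scaling. The first (chr1:24608827-24618793), which holds a nuclear copy of mitochondrial sequence, had 85191 and 90548 scaled counts with KCl, 44520.1 and 38889.9 with BDNF and 41296 to 53706 in the controls (log2 fold change -1.08, SE 0.17, adjusted p = 0.00157). The second (chr17:39843020-39848781) holds a copy of the ribosomal RNA precursor and differed by -0.80 (adjusted p = 0.0136), and the third (chr2:98666247-98667321), at Gm10800, was 81.3% repeat-masked and differed by -0.54 (adjusted p = 0.0947). Reads at such sites can come from other copies, so the values are uncertain as measures of these positions. The size of these differences depended on the scaling: with TMM, RLE and total reads, alternatives added after seeing the data, the first peak differed by -0.54, -0.53 and -0.57 (adjusted p = 0.0503, 0.0484 and 0.0365), and neither the second (-0.29 to -0.32, adjusted p = 0.119 to 0.181) nor the third (-0.15 to -0.19, adjusted p = 0.579 to 0.675) was called. The fitted difference of KCl from the controls at the first peak was 0.90 with LOESS (adjusted p = 0.00244) and 0.14 to 0.19 with the other 3 scalings (adjusted p = 0.437 to 0.594). By share of the reads in peaks, the first took 1.96% and 1.73% of the KCl libraries, 1.32% and 1.16% of the BDNF libraries and 1.38% to 1.95% of the controls. Together the 3 took 3.02% and 2.78% with KCl, 2.21% and 1.99% with BDNF and 2.33% to 2.89% in the controls, so that by share BDNF lay below the control range and KCl library B within it.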

How the data were processed

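ATAC-seq reads were trimmed with Trimmomatic, aligned to mm10 with Bowtie2 and called into peaks with MACS2 by the authors, and DiffBind merged peaks seen in at least 2 samples; the submitters' notes name these tools. The deposited table, although named normalised, holds counts of reads per peak (whole numbers, lowest value 1), 1241829 to 6236439 reads per library. The deposited RNA signal is gene counts (TopHat2, GENCODE) divided by a DESeq2 size factor by the authors: 100% of values were whole reads within 0.01, at 8508452 to 36699187 reads per library. The authors' own comparison tables hold fold changes and p-values and were not used. The 2 libraries of each group differed by 2.017 to 2.581 chi-square per degree of freedom, beyond sampling noise, and none were identical.

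Peaks with a mean count of at least 10 (56383 of 58177) were tested in R 4.3.3 with LOESS offsets and the quasi-likelihood test of edgeR 4.0.16 in 1 model of all 18 libraries with 7 levels, the 6 controls forming 1 level. Calls used a Benjamini-Hochberg adjusted p below 0.1 over all peaks, two-sided. RNA was tested by limma 3.58.1 on log2(value + 1) for 16209 genes with a mean of at least 10, so fold changes of low genes are understated. Scripts were tested on simulated data. Intervals of shares are exact Clopper-Pearson at 95% and cover counting error only. Peaks were assigned to the nearest protein-coding start within 100 kb, and motifs were read from GRCm38 in the central 200 bp.

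Named peaks were the 10 largest in each direction among called peaks whose groups did not overlap and whose mean scaled count was at least 20, the 6 largest promoter peaks by the same criteria, the called promoter peaks and strongest called peak of each listed gene, the 8 genes in each direction with most called peaks, and the peak with the Arc guide sites. Members, lists and named rules were chosen with earlier results of these data known. Alternatives covered the scaling, filter, test (DESeq2 1.42.0 and limma), model, threshold, promoter window and each left-out library. A few named peaks and 1 sequence are not reported here.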

Additional observations from a re-analysis of the deposited data

Results flagged for a closer look

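For 16 of the 110 named peaks the BDNF minus KCl difference at 1 h differed from that at a later time by the test of the difference itself (adjusted p below 0.1 over all peaks). The values below are that difference on the log2 scale, 1 h minus 10 h. Among the peaks higher with BDNF it was 3.34 in the Nebl intron and 2.61 at the second Nebl peak, 3.19 in S100a3, 2.89 in the Sptbn1 exon near Eml6, 3.26 in Mpped2, 3.17 at the 1700014D04Rik promoter and 2.38 at the Vmn2r120 promoter. The Rgs17 intron near Mtrf1l differed from both later times, by 2.98 from 6 h and 3.55 from 10 h. At the gene lists it was 4.08 upstream of Serpinb2, 2.94 in Camk2d, 2.56 in Ppp3r1 and 1.56 upstream of Jun. Among the peaks higher with KCl it was -3.09 in A630089N07Rik, -1.83 at Dync1i1, -3.34 near Fat4 and -2.75 upstream of Klf4. The peaks were chosen for their 1 h values, which enter this test.

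At 8 of 114 sets of 6 control libraries, 1 library stood far from the others by Dixon's test, which chance does in about 1 in 20 sets. The library stood high, in scaled counts, with 57.3 at the Gm26863 start near Klf10 (control median 27.0), 9.75 at the Plk2 site (control median 1.95) and 7.78 at the Rcan2 intron (control median 1.51). It stood low with 1.02 at the Map3k7 exon (control median 3.21), 8.27 at the Gars intron (control median 16.7), 166 at the Camk1d promoter (control median 187), 13.4 at the Fos downstream site (control median 27.3) and 1.01 at the Ntrk3 intron (control median 10.1). The comparison of BDNF with KCl uses these libraries only through the shared filter, scaling and estimate of the spread between replicates.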

How the results depend on the processing

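No paired analysis was possible because the ATAC-seq columns carry no replicate number and the RNA-seq letters do not say which cultures they pair. Counts of called peaks moved with the test, filter and model; no named peak changed direction. With limma 3220 peaks were higher with BDNF and 1589 with KCl (promoters 444 and 406), and AP-1 shares were 51.8% and 2.64%. With a mean of at least 30 there were 2240 and 1470 (AP-1 30.8% and 2.11%), from 28149 peaks tested. With the 4 libraries alone 4710 were higher with KCl, promoters 1198 and 1217, and the AP-1 share with BDNF was 46.3%. At an adjusted p below 0.01 the counts were 2343 and 568, promoters 218 and 158, again at 6 h 141 and 16, again at 10 h 67 and 8, differences between 1 h and 10 h 26 and between 1 h and 6 h 0 by edgeR (4876 at an unadjusted p below 0.05), with an AP-1 share of 59.7%. Without single libraries 1928 to 4199 peaks were higher with BDNF and 871 to 1947 with KCl, promoters 226 to 508 and 212 to 470, the AP-1 share with BDNF 53.1% to 54.6%, and RNA calls higher with KCl 1955 to 2361. The cause of these shifts was not tested beyond the fewer samples or peaks.

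Differences between 1 h and 6 h numbered 101 with TMM, 104 with RLE and 121 with total reads against 39, promoter calls 811 and 918 with total reads, and the AP-1 share was 50.7% with total reads and 50.9% with DESeq2. No scaling moved the median of all peaks by more than 0.04, and 59.3% to 68.2% of calls were higher with BDNF over scalings. Of 109 called named peaks, 47 stayed called in all 4 fits that left out 1 library. The edgeR test on recovered whole RNA reads, chosen after seeing the data, called 3882 genes higher with BDNF and 2911 with KCl. The peak with the Arc guide sites was called with the 4 libraries alone and with controls split by time. With 2 libraries a group, a peak that missed the threshold is not shown to be equal under both stimuli.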
